A study of Mus musculus with 6 samples.

Results

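The gelsolin family of actin-binding proteins was followed in CD8+ T cells of the mouse, which are the cytotoxic lymphocytes. The family was represented by 7 genes: Scin, Gsn, Capg, Flii, Svil, Vil1 and Avil. Scin was chosen by its CPM (read counts scaled by library size), which was lower in cells given STAT3+ conditioned medium (CM) than in cells given STAT3- CM, in these same libraries, so its difference is given as a description with no test. The other members were taken by family. Counts of 6 of the 7 genes were used, out of 14481 genes in all, and expression of Vil1 was not analysed here. Avil was too low for the test, which left 5 members among the 14319 genes tested.

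Polyadenylated RNA was sequenced from 3 libraries of STAT3+ CM and 3 libraries of STAT3- CM. In STAT3+ CM, wild-type (WT) CD8+ T cells received CM from pSTAT3+ astrospheres, and in STAT3- CM from pSTAT3- astrospheres; pSTAT3 is the phosphorylated form of the transcription factor STAT3. In both groups the cells had been sorted, stimulated with coated anti-CD3 and dissolved anti-CD28 at 1 µg/ml each plus 0.1 µg/ml of interleukin 2, given CM at day 1 and taken for RNA at day 3, after 2 days in CM. The comparison asks how what these astrospheres release affects the T cells. The labels give no age of the mice and do not say whether replicates were separate mice or cultures, so p-values reflect no more than how these libraries spread. Cells kept without CM were not analysed here.

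The libraries held between 43346089 and 53630514 counts. T cell identity genes were present in every library, with summed levels of 3299 to 4091 CPM in STAT3+ CM and 3297 to 3476 CPM in STAT3- CM. An adjusted p of 0.05 was passed by 0 of 14319 genes (0%) in the quasi-likelihood test of edgeR, while at an unadjusted p under 0.05 stood 192 on the higher side (1.34%) and 329 on the lower (2.3%). DESeq2 called 48 genes (0.331%) and limma-voom 0. The first principal component held 36.8% of the variance. Its scores were 16.3, -21.8 and 6.12 for the STAT3+ CM libraries, against -23.9, -16.4 and 39.6 for those of STAT3- CM.

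Proteins of this family are built from repeated gelsolin-like domains and act on actin filaments, several of them under the control of calcium and phosphoinositides. Scinderin (adseverin, Scin) and gelsolin (Gsn) cut filaments and then cap the fast-growing end. CapG (Capg) caps that end without cutting, flightless I (Flii) joins gelsolin-like domains to leucine-rich repeats, and supervillin (Svil) ties actin and myosin II to membranes. Villin (Vil1) shapes the microvilli of gut epithelium, and advillin (Avil) is known from sensory neurons. In T cells, actin turnover shapes the contact with the target cell and the path of cytotoxic granules to it.

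In the mouse thymus, the Scin transcript is known to be induced by the dioxin TCDD acting through the aryl hydrocarbon receptor (AHR). The 250 bases before the Scin start site are therefore shown, from RefSeq on GRCm38.p6, minus strand, chr12:40134229-40134478. Capitals mark the letters GCGTG, the core that AHR and its partner ARNT are known to bind.

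Scin promoter: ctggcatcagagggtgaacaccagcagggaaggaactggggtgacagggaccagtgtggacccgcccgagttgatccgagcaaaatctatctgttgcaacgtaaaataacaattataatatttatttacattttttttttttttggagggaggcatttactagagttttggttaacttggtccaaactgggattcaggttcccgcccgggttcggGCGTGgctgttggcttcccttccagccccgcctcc

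The motif GCGTG was searched on both strands, its reverse complement being CACGC, and it began at position -35 from the Scin start site. Of 8 promoter windows matched to 6 family genes, all but Svil, this was the 1 window with a match. Svil had no window. Of all 32851 windows of 250 bases, 28.2% held it, so a match is common. It is a description of letters and not of a binding site.

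Scin stood at 3.97, 4.25 and 6.16 CPM in STAT3+ CM and at 13.3, 15.3 and 11.5 CPM in STAT3- CM. Each STAT3+ CM value was below each STAT3- CM value, and the highest of the STAT3+ CM values was that of replicate 3. The reads behind them numbered 180, 177 and 341 in STAT3+ CM, against 601, 717 and 531 in STAT3- CM. The mean in STAT3+ CM, 4.79 ± 1.19 CPM (SD, n = 3), was 35.9% of the mean in STAT3- CM, 13.3 ± 1.88 CPM (SD, n = 3). The log2 fold change of STAT3+ CM over STAT3- CM was -1.47 (SE 0.22), and with each library left out in turn it ran from -1.70 to -1.35. Among all genes tested, 4.18% were lower in STAT3+ CM with no overlap between the groups and 1.12% had a log2 fold change of -1 or lower; since Scin was chosen for this difference, nothing is read from that. In these bulk libraries, fewer cells that express a gene and less of its RNA per cell cannot be told apart.

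**Figure D1:**
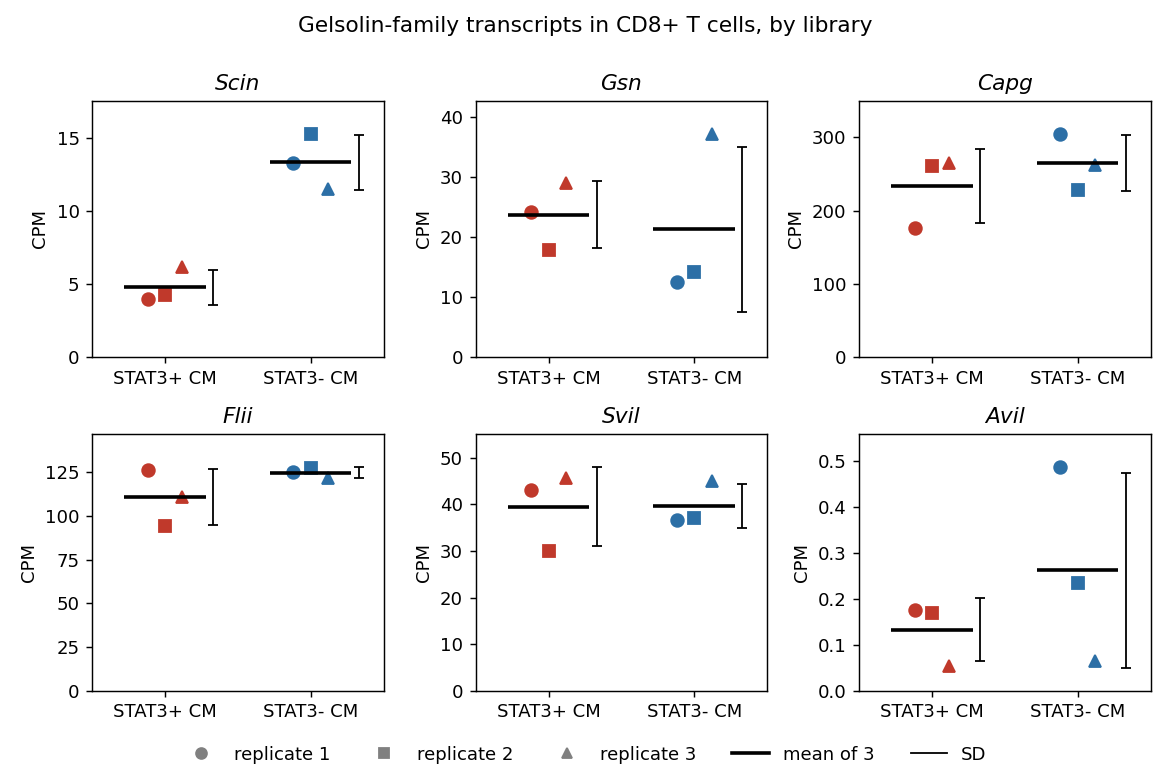
CPM of the 6 gelsolin-family genes in each library, STAT3+ CM left and STAT3- CM right; points are libraries, thick bars the mean of 3 and thin bars the SD. The groups are apart for Scin (3.97 to 6.16 CPM in STAT3+ CM, 11.5 to 15.3 CPM in STAT3- CM) and overlap for the other genes.

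Markers of dendritic cells stood on the same side as Scin. Their summed level was 95.3 to 120 CPM in STAT3+ CM and 132 to 185 CPM in STAT3- CM, with no overlap. This separation rested on Cd74, at 36.1, 44.7 and 36.1 CPM in STAT3+ CM and 79.1, 94.2 and 50.7 CPM in STAT3- CM. With Cd74 left out, the sums of the groups overlapped. Of 13 markers 7 were tested and 6 of these had log2 fold changes below 0, where 49.8% of all genes tested did, with a median of -0.61. With all libraries 0 passed the edgeR threshold, while DESeq2 called H2-Aa (adjusted p = 0.00397) and Cd74 (adjusted p = 0.0127) lower, where it called 0.228% of all genes lower. Without STAT3- CM replicate 3, edgeR also called H2-Aa (log2 fold change -2.01, adjusted p = 0.0419) and Cd74 (-1.16, adjusted p = 0.0341) lower. H2-Aa, of MHC class II, averaged 1.26 ± 0.47 CPM in STAT3+ CM and 4.15 ± 1.53 CPM in STAT3- CM (SD, n = 3 each). The invariant chain Cd74 averaged 38.9 ± 4.98 CPM in STAT3+ CM and 74.7 ± 22.1 CPM in STAT3- CM. H2-Ab1, the beta chain partner of H2-Aa, was the 1 tested marker above 0, with 8.21 ± 0.496 CPM in STAT3+ CM and 7.50 ± 2.06 CPM in STAT3- CM (log2 fold change 0.13, SE 0.22). The transcription factor gene Batf3 averaged 42.4 ± 9.03 CPM in STAT3+ CM and 46.8 ± 9.61 CPM in STAT3- CM (-0.14, SE 0.19). Itgax (CD11c) averaged 0.920 ± 0.175 CPM in STAT3+ CM and 0.955 ± 0.167 CPM in STAT3- CM (-0.035, SE 0.29). The groups overlapped in these 3 genes. H2-Eb1 averaged 2.77 ± 0.359 CPM in STAT3+ CM and 5.12 ± 0.987 CPM in STAT3- CM (-0.88, SE 0.23). Zbtb46 averaged 10.2 ± 2.77 CPM in STAT3+ CM and 15.6 ± 2.79 CPM in STAT3- CM (-0.61, SE 0.22). In H2-Aa, Cd74, H2-Eb1 and Zbtb46, 4 of the 7 tested markers, the groups did not overlap on the lower side. Of all genes tested, 4.18% did not overlap on that side. Xcr1, Clec9a, Flt3, Clec10a, Cd209a and Siglech were not analysed here. Of the 10 T cell identity genes, all tested, 1 lay below 0, with a median of 0.17, and 0 passed by edgeR. The part of dendritic cells in the Scin difference was not tested.

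Markers of other cells known to use this family were also read. Their CPM is not scaled by gene length and several values are sums, so their size was not compared with the level of Scin. Macrophage and monocyte markers, of which 4 of 13 were analysed here, summed to 3.63 to 5.60 CPM in STAT3+ CM and 3.70 to 10.3 CPM in STAT3- CM, and these ranges overlap. Itga2b was the 1 platelet marker of 7 analysed here, at 1.01 to 1.30 CPM in STAT3+ CM and 0.971 to 1.65 CPM in STAT3- CM. Fibroblast markers, of which 3 of 7 were analysed here, summed to 0.793 to 1.59 CPM in STAT3+ CM and 0.905 to 1.86 CPM in STAT3- CM. Among mast cell and basophil markers Kit alone of 8 was analysed here, and among those of intestinal epithelium Epcam alone of 6. No neutrophil marker of 8 was analysed here. NK cell markers summed to 4.06 to 12.6 CPM in STAT3+ CM and 6.17 to 13.1 CPM in STAT3- CM. Astrocyte markers, of which 3 of 7 were analysed here, summed to 9.85 to 19.4 CPM in STAT3+ CM and 15.4 to 18.7 CPM in STAT3- CM. Most of this sum was Slc1a2, at 6.17 to 14.4 CPM in STAT3+ CM and 12.1 to 14.6 CPM in STAT3- CM. Cd79b, the 1 B cell marker of 7 analysed here, stood at 10.9 to 11.8 CPM in STAT3+ CM and 7.40 to 10.7 CPM in STAT3- CM. It was higher in STAT3+ CM with no overlap, where 7.95% of all genes tested had none in either direction.

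Among the 5 tested members, gelsolin had the widest ratio of highest to lowest library in each group, 1.62 in STAT3+ CM and 2.95 in STAT3- CM. Gsn stood at 24.2, 17.9 and 29.0 CPM in STAT3+ CM and at 12.6, 14.1 and 37.2 CPM in STAT3- CM. The STAT3- CM values enclosed all 3 of STAT3+ CM. The log2 fold change was 0.16 (SE 0.37, adjusted p = 0.992 by edgeR's quasi-likelihood test), with a 95% interval of -0.67 to 0.99. Without STAT3- CM replicate 3 it was 0.83 (SE 0.21, adjusted p = 0.287). It turned to -0.11 without STAT3- CM replicate 1, to -0.08 without STAT3- CM replicate 2 and to -0.02 without STAT3+ CM replicate 3. The 3 libraries with the most Gsn, STAT3- CM replicate 3 and STAT3+ CM replicates 1 and 3, were also the 3 with positive scores on the first principal component, to which Gsn itself contributes.

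Capg was the most abundant member per length and did not pass the test. It stood at 176, 261 and 266 CPM in STAT3+ CM and at 305, 228 and 262 CPM in STAT3- CM. The groups overlapped, with STAT3+ CM replicate 1 below the rest. The log2 fold change was -0.18 (SE 0.18, adjusted p = 0.989 by edgeR), its 95% interval ran from -0.57 to 0.22, and without STAT3+ CM replicate 1 it was -0.01.

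Flii, which also acts as a coactivator of nuclear receptors, stood at 126, 94.5 and 111 CPM in STAT3+ CM and at 125, 128 and 122 CPM in STAT3- CM. The STAT3- CM libraries lay close together, with a highest value 1.05 times the lowest, against 1.34 times in STAT3+ CM. The log2 fold change was -0.17 (SE 0.13, adjusted p = 0.989 by edgeR; 95% interval -0.47 to 0.12), and it was -0.07 without STAT3+ CM replicate 2. Flii overlaps Llgl1 on the opposite strand, and whether the counting used strand is not stated in the sources used here, so its reads are less certain.

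Svil stood at 43.0, 29.9 and 45.6 CPM in STAT3+ CM and at 36.7, 37.1 and 45.1 CPM in STAT3- CM. The means, 39.5 ± 8.41 CPM in STAT3+ CM and 39.7 ± 4.70 CPM in STAT3- CM (SD, n = 3 each), lay closer together than the libraries of either group, with STAT3+ CM replicate 2 the lowest of all. The log2 fold change was -0.0031 (SE 0.17, adjusted p = 1.00 by edgeR), with a 95% interval of -0.38 to 0.38. An interval of this width leaves room for changes in either direction.

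Avil had 8, 7 and 3 reads in STAT3+ CM, against 22, 11 and 3 reads in STAT3- CM, or 0.0542 to 0.176 CPM in STAT3+ CM and 0.0650 to 0.486 CPM in STAT3- CM. The groups overlapped and the gene did not pass the filter on low counts. It overlaps Tsfm on the opposite strand, with the same limit as for Flii. A difference of Avil was therefore not tested, and none is read from so few reads.

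Levels of different genes were compared as CPM per kb of exon. In all 6 libraries Capg came first, Flii second and Avil last, and Gsn was above Svil. Capg averaged 92.6 ± 19.9 CPM per kb in STAT3+ CM and 105 ± 15.1 CPM per kb in STAT3- CM, and Flii 22.0 ± 3.18 CPM per kb in STAT3+ CM and 24.8 ± 0.586 CPM per kb in STAT3- CM (SD, n = 3 each). In STAT3+ CM Scin had rank 5 in each library, with 1.32 to 2.05 CPM per kb below the 2.80 to 4.26 of Svil and the 5.66 to 9.18 of Gsn. In STAT3- CM Scin (3.83 to 5.09 CPM per kb), Svil (3.43 to 4.21) and Gsn (3.99 to 11.8) overlapped, and their order changed between libraries. Scin made up 1.08% to 1.44% of the family's summed CPM per kb in STAT3+ CM and 2.60% to 3.95% in STAT3- CM, while Capg made up 64.6% to 78.2% in STAT3+ CM and 70.1% to 76.6% in STAT3- CM. The family's sum was 108, 132 and 143 CPM per kb in STAT3+ CM, against 157, 129 and 148 CPM per kb in STAT3- CM, and these overlapped.

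**Figure D2:**
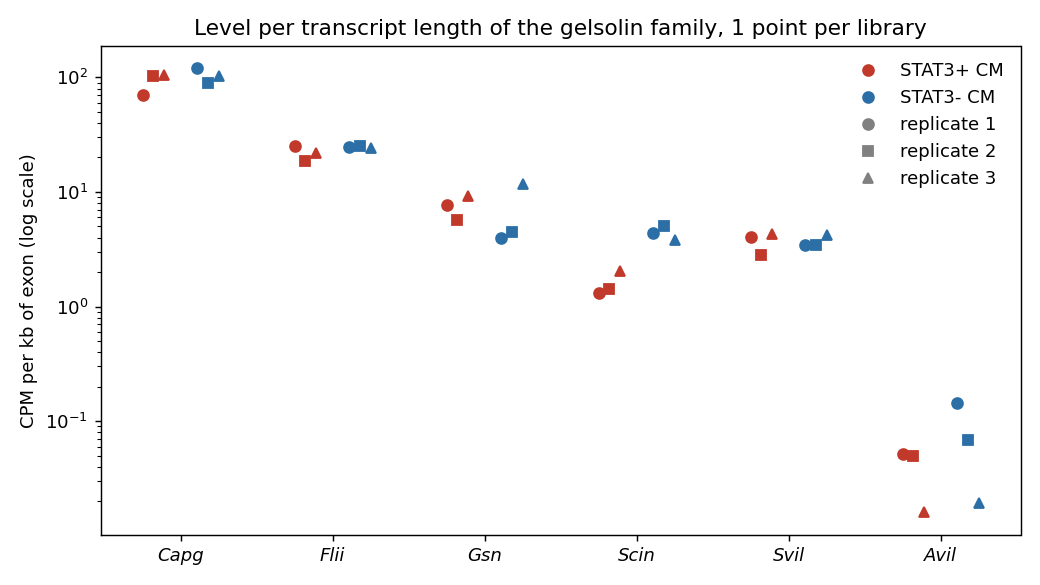
CPM per kb of exon, on a log axis, for the 6 members in each library; red points left are STAT3+ CM and blue points right STAT3- CM. Capg (69.6 to 120 CPM per kb) lies above Flii (18.8 to 25.3) in every library, and Scin lies below Svil in the STAT3+ CM libraries.

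The profiles of the members across the libraries differed from each other. The distance between profiles, the root mean square difference of log2 CPM over the 6 libraries after centring each gene, was smallest for Flii and Svil (0.18) and largest for Gsn and Scin (1.09). Scin was nearest to Capg among the members, at 0.70. Over all 10899 named genes of at least 1 mean CPM in either group, the median distance to Scin was 0.80.

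The 5 genes with the smallest distance to Scin were Il9r (0.21), Syn1 (0.21), Lgals3 (0.24), Trp73 (0.24) and Khdc1b (0.24). Since Scin has no overlap between the groups, genes near it in profile are also lower in STAT3+ CM by construction. Lgals3, which encodes galectin-3, is the abundant one, at 54.0, 85.7 and 101 CPM in STAT3+ CM, against 254, 205 and 221 CPM in STAT3- CM. Il9r, the interleukin 9 receptor, stood at 0.529, 0.697 and 0.795 CPM in STAT3+ CM, against 2.72, 2.66 and 2.06 CPM in STAT3- CM. In Lgals3 and Il9r, as in Scin, STAT3+ CM replicate 1 was the lowest library of all and STAT3+ CM replicate 3 the highest of its group. The choice by profile also favours such a shared order, so nothing is read from it. Syn1 (synapsin I), Trp73 (the p53 relative p73) and Khdc1b each had 13 to 69 reads per library in STAT3+ CM and 41 to 113 in STAT3- CM. Counting error is large in these 3 genes and in Il9r, and Khdc1b has near-identical relatives that can share its reads. Il9r, Syn1, Trp73 and Khdc1b averaged under 1 CPM in STAT3+ CM. They met the level of 1 mean CPM only through STAT3- CM, where they are higher.

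**Figure D3:**
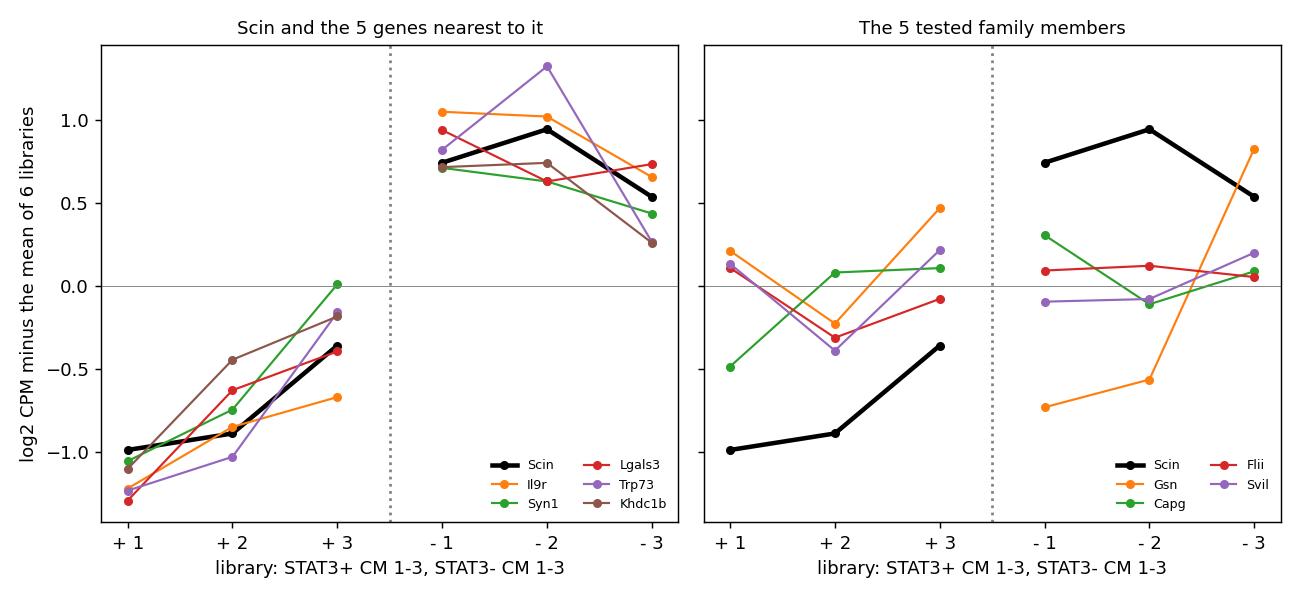
Log2 CPM minus the mean of the 6 libraries, for Scin with the 5 genes nearest to it (left panel) and for the 5 tested members (right panel); the x axis gives the libraries, STAT3+ CM first, and lines only join points of 1 gene within a group. Scin and its nearest genes are high in all 3 STAT3- CM libraries, while Gsn is high in STAT3- CM replicate 3 and STAT3+ CM replicate 3.

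Other genes of actin turnover were examined in 5 lists with 112 genes, of which 107 were tested and 0 passed by edgeR in either direction. Of the 107 genes 60 had log2 fold changes below 0 (56.1%, against 49.8% of all genes tested), and the median was -0.021, against 0.00076 over all genes tested. The groups did not overlap in 3 of the genes (2.80%), all lower in STAT3+ CM, against 7.95% of all genes tested in either direction. At an unadjusted p under 0.05 stood 4 (3.74%), all on the lower side, against 3.64% of all genes tested in either direction and 2.3% on the lower side. Both counts, without overlap and by unadjusted p, include Carmil3, which reached the low-count filter only through STAT3- CM, where it is higher.

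Among 24 genes that sever or depolymerise filaments, recycle monomers or control this, 12 lay below 0 and 12 above, with a median of 0.0018. The 3 smallest p-values were those of Gmfg, a debranching factor of blood cells (log2 fold change 0.42, SE 0.22), the coronin Coro2a (-0.36, SE 0.21) and the cofilin phosphatase Ssh3 (-0.53, SE 0.33). Cofilin itself, Cfl1, averaged 1488 ± 201 CPM in STAT3+ CM and 1396 ± 239 CPM in STAT3- CM (SD, n = 3 each).

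Of 15 capping genes tested 8 lay below 0, with a median of -0.014. Carmil3, a regulator of capping protein, had the smallest p (log2 fold change -1.63, SE 0.47, edgeR adjusted p = 0.890), from 12, 5 and 8 reads in STAT3+ CM, against 15, 25 and 36 reads in STAT3- CM. Carmil3 reached the low-count filter only through STAT3- CM, where it is higher, so its side was partly set by the filter. Next by p came the capping subunit Capza2 (0.11, SE 0.12) and Eps8 (-0.27, SE 0.33). Of 35 genes of branching and nucleation 20 lay below 0, with a median of -0.042. The formins Inf2 (-0.40, SE 0.18), Daam1 (-0.34, SE 0.17) and Fmnl1 (-0.27, SE 0.14) came first by p there.

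Of 12 genes for actin, its monomers and elongation 5 lay below 0, with a median of 0.054. The monomer-binding thymosins Tmsb4x (log2 fold change 0.34, SE 0.17) and Tmsb10 (0.27, SE 0.15) and the coactivator Mrtfb (-0.27, SE 0.20) had the smallest p-values. Tmsb4x stood at 5468, 4987 and 4006 CPM in STAT3+ CM and at 3430, 3712 and 4318 CPM in STAT3- CM, with overlap.

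Of 22 bundling, crosslinking and membrane-linking genes 15 lay below 0, with a median of -0.087. Fscn1, the filament bundler fascin, which mature dendritic cells express strongly, stood at 6.54, 9.80 and 13.0 CPM in STAT3+ CM and at 23.5, 29.8 and 15.5 CPM in STAT3- CM. The groups did not overlap, and the log2 fold change was -1.22 (SE 0.28, adjusted p = 0.574 by edgeR). DESeq2 called it lower (log2 fold change -1.22, SE 0.28, adjusted p = 0.00732), the 1 call it made among the 107 genes, where it called 0.228% of all genes lower. The lower dendritic cell markers given with Scin stand beside this value, and their part in it was not tested. Flna (-0.47, SE 0.18), which crosslinks filaments, followed.

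**Figure D4:**
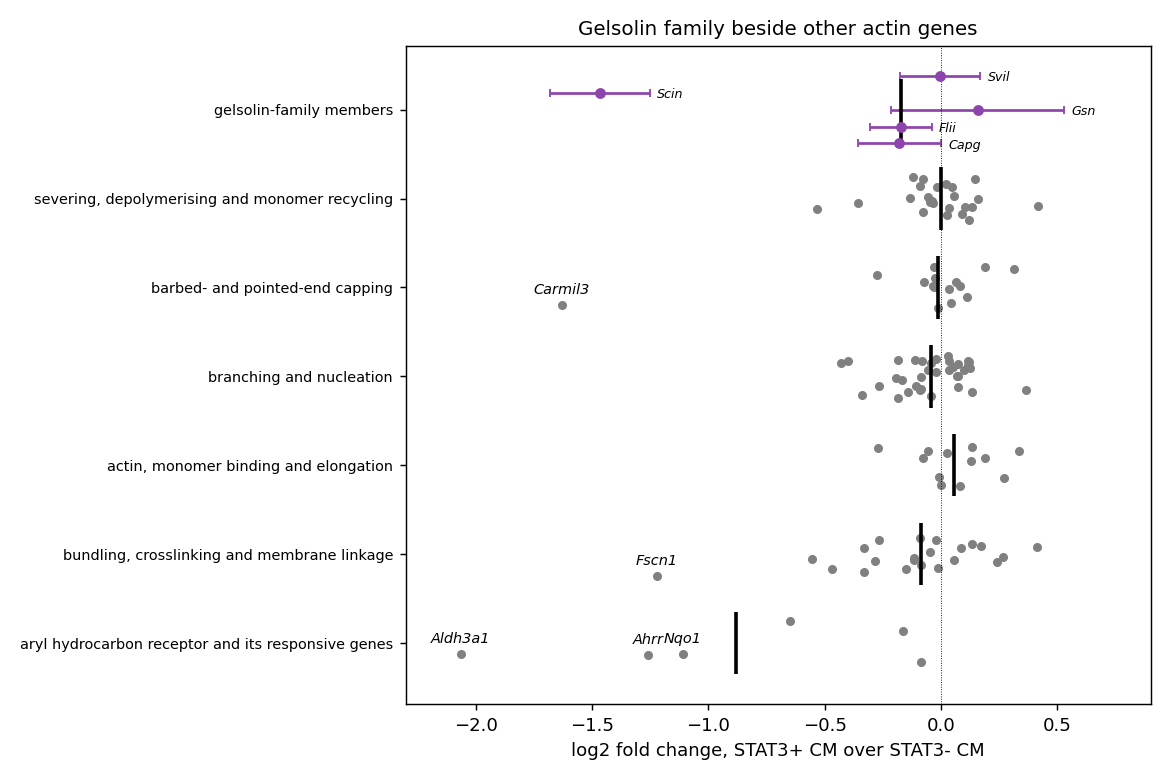
Log2 fold change of STAT3+ CM over STAT3- CM for each tested gene of the gelsolin family (purple, bars are the SE), of 5 lists of other actin genes and of the AHR list (grey points); black ticks are list medians. Scin (-1.47), Carmil3 (-1.63) and Fscn1 (-1.22) lie lowest among the actin genes. Scin was chosen for its difference. Carmil3 rests on 5 to 36 reads per library and reached the low-count filter only through STAT3- CM.

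The AHR list held 10 genes, of which 6 were tested and 0 passed by edgeR in either direction. All 6 had log2 fold changes below 0, where 49.8% of all genes tested did, with a median of -0.88. Without STAT3- CM replicate 3, or without STAT3+ CM replicate 2, 5 of the 6 lay below 0. In 4 of the 6 the groups did not overlap on the lower side, where 4.18% of all genes tested did not. Ahr, Ahrr and Aldh3a1 are among these 4. The value of Ahr was known when the list was drawn up. Aldh3a1 reached the low-count filter only through STAT3- CM, where it is higher, so its side was partly set by the filter. Ahrr, with 27, 9 and 40 reads in STAT3+ CM, met the filter in all 3 libraries of a group only in STAT3- CM. Nothing is read from the place of these genes. The dendritic cell markers lay lower in the same libraries, with 6 of 7 below 0, a median of -0.61 and no overlap in 4, and their part in the values of this list was not tested. Nqo1, a quinone reductase that the factor NRF2 also induces, stood at 2.86, 3.10 and 3.07 CPM in STAT3+ CM and at 9.43, 5.64 and 4.46 CPM in STAT3- CM. Its log2 fold change was -1.11 (SE 0.29, adjusted p = 0.702 by edgeR), and DESeq2 called it lower (log2 fold change -1.11, SE 0.29, adjusted p = 0.0392).

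The receptor gene Ahr stood at 1.89, 1.90 and 2.44 CPM in STAT3+ CM and at 4.15, 2.81 and 2.90 CPM in STAT3- CM, with no overlap (log2 fold change -0.65, SE 0.26, edgeR adjusted p = 0.989). Ahrr, the repressor that AHR induces, stood at 0.595, 0.216 and 0.722 CPM in STAT3+ CM and at 1.04, 0.809 and 1.97 CPM in STAT3- CM (-1.26, SE 0.46, edgeR adjusted p = 0.989). Aldh3a1, an aldehyde dehydrogenase, had 4, 3 and 7 reads in STAT3+ CM, against 34, 14 and 10 reads in STAT3- CM (-2.06, SE 0.60, edgeR adjusted p = 0.890).

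The other genes of the list overlapped between groups. Tiparp, a poly-ADP-ribose polymerase family member induced by TCDD, averaged 9.97 ± 0.316 CPM in STAT3+ CM and 11.2 ± 1.32 CPM in STAT3- CM (-0.16, SE 0.16). Arnt averaged 44.4 ± 7.03 CPM in STAT3+ CM and 47.1 ± 5.51 CPM in STAT3- CM (SD, n = 3 each; -0.09, SE 0.15). The cytochrome P450 genes Cyp1a1, Cyp1a2 and Cyp1b1, the best known AHR targets, and Ugt1a6a were not analysed here. Any link between these genes and Scin was not tested.

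**Figure D5:**
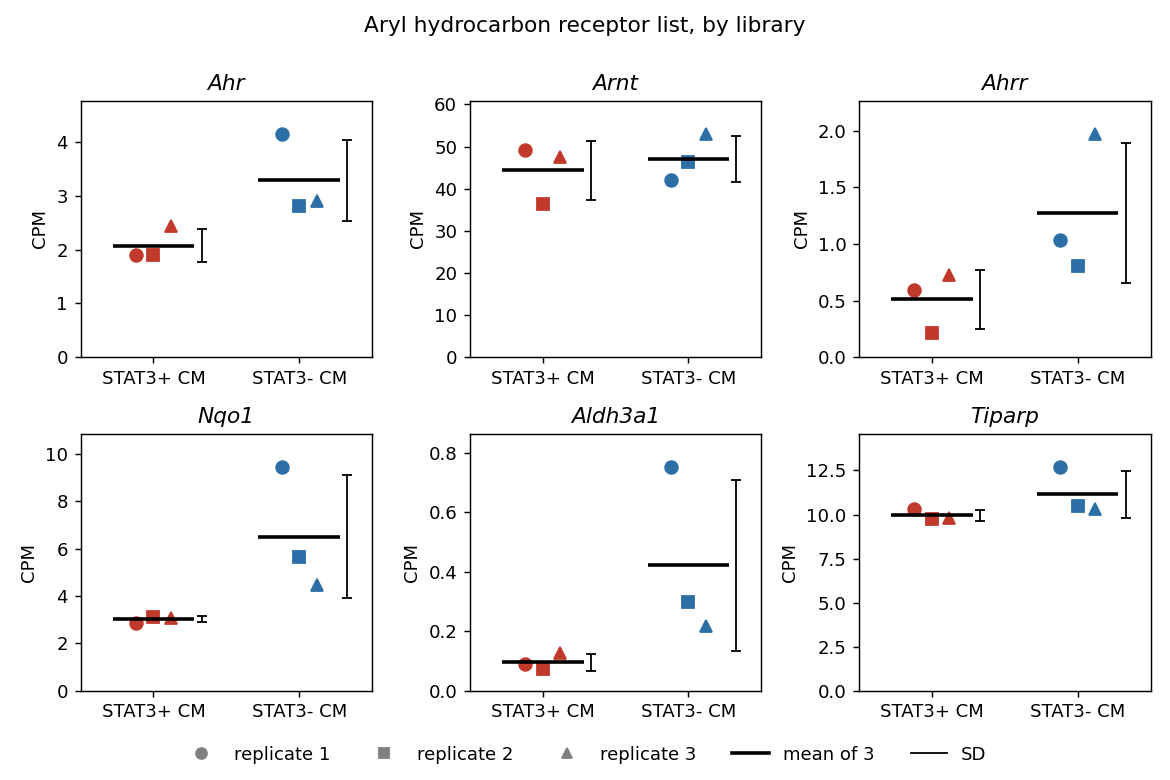
CPM of the 6 tested genes of the AHR list in each library, STAT3+ CM left and STAT3- CM right; points are libraries, thick bars the mean of 3 and thin bars the SD. The groups do not overlap for Ahr, Ahrr, Nqo1 and Aldh3a1 and overlap for Tiparp and Arnt.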

How the data were processed

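The authors deposited a table of raw read counts, whole numbers per gene and library. The submitters' processing notes list the GRCm39 build, Cufflinks 2.2.1, TopHat2 2.0.10, SAMtools 0.1.19, Bowtie 1.0.0 and FastQC. How reads were counted, with which annotation and strand setting, is not given in the sources used here. The lowest gene total in the table was 40.

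Counts were filtered with filterByExpr (162 genes left out) and TMM-scaled. Groups were compared with the robust quasi-likelihood test of edgeR 4.0.16 (R 4.3.3), with Benjamini-Hochberg adjustment over all 14319 genes tested, a threshold of 0.05 and two-sided p-values. The SE is the size of the log2 fold change divided by the root of the F statistic, and intervals use the test's degrees of freedom. CPM uses TMM-scaled totals, log2 CPM a prior count of 2, and exon length the union of GENCODE exons on GRCm38. Alternatives were DESeq2 1.42.0, limma-voom (limma 3.58.1), other scalings and filters, the older quasi-likelihood method, a replicate block and libraries left out. The workflow was tested on simulated data.

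Members and lists were chosen with earlier results of these data known. Named genes are the members, the 5 genes nearest to Scin (predicted and clone names left out), the 3 smallest p-values of each actin list, the tested AHR genes and the markers; Cfl1 was added after its values were seen. Of the genes this rule names, 1 is not reported here.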

Additional observations from a re-analysis of the deposited data

How the results depend on the processing

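The log2 fold change of Scin lay between -1.70 and -1.35 in all 16 alternatives (-1.44 in a fit chosen after seeing the data, which dropped the pair of STAT3+ CM replicate 1 with STAT3- CM replicate 3). Capg and Flii stayed below 0 in all 16. Gsn ran from -0.11 to 0.83 with 1 library left out. Svil ran from -0.12 to 0.16 with 1 library left out, was 0.0026 with upper quartile scaling and 0.034 without that pair. Gsn, Capg, Flii and Svil did not pass in any alternative, and no p is given for Scin, which was in every fit but was chosen for its difference. Over all genes, DESeq2 called 48, the fit without that pair 10, the fits with 1 library left out 0 to 18 (18 without STAT3- CM replicate 3, 1 without STAT3- CM replicate 1), and the other alternatives 0. DESeq2 called 1 gene among the actin lists (Fscn1) and 1 in the AHR list (Nqo1), and no other alternative called any. The AHR list had 4 to 6 genes below 0, the 4 being the number tested with at least 1 CPM in at least 3 libraries. The cause of these changes was not tested. Equal replicate numbers gave no sign of a pairing: across genes, libraries of equal number correlated at -0.26, 0.28 and 0.18 after removal of group means, and 2 of 6 libraries correlated best with their own number. With the replicate block the log2 fold change was -1.48 for Scin, -0.19 for Capg, -0.18 for Flii, 0.30 for Gsn and -0.021 for Svil, with 0 genes called over all genes and 0 in the actin lists. Depth limits Avil, Aldh3a1 and the other genes under about 1 CPM.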
